A study of Caenorhabditis elegans with 12 samples.

Results

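The genes described here are the cytosolic heat shock genes hsp-16.1, hsp-16.2, hsp-16.41, hsp-16.48, hsp-12.6, hsp-70, hsp-1 and daf-21, with hsf-1, the transcription factor gene of the heat shock response. They were taken from a list of names, by a rule that uses no measured value, but the list was drawn up with earlier results of these data known. The 9 names matched 11 of the 17430 gene IDs, because the symbols hsp-16.1 and hsp-16.48 each belong to a pair of gene copies. All 11 passed the filter on low values, which asked for 10 or more in 3 or more libraries and which 12908 genes passed. RNA was sequenced from whole adult worms of the wild-type strain N2 of the nematode Caenorhabditis elegans. Worms were fed control RNAi or stt-3 RNAi bacteria up to the L4 larval stage. They were then kept for 12 h on the same RNAi bacteria, which are E. coli, or on PA14, a strain of the pathogen Pseudomonas aeruginosa. Each of these 4 conditions had 3 libraries, which gave 12 in all. The gene stt-3 encodes the catalytic subunit of the oligosaccharyl transferase, the enzyme that attaches sugar chains to proteins in the endoplasmic reticulum (ER). The study compared PA14 with E. coli, and stt-3 RNAi with control RNAi, to learn how this enzyme bears on the response to infection. For the worms whose RNA was sequenced, the temperature of the plates is not given in the sources used here.

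Cells answer misfolded proteins in the cytosol with the heat shock response. In this response the transcription factor HSF-1 binds heat shock elements in promoters and raises the transcription of chaperone genes. Small heat shock proteins hold unfolded proteins so that they do not aggregate, Hsp70 proteins refold them with ATP, and Hsp90 matures kinases and receptors. In C. elegans the hsp-16 genes and hsp-70 are known for strong induction by heat, while hsp-1 (a constitutive Hsp70) and daf-21 (Hsp90) are transcribed in most cells at all times. The gene hsp-12.6 is a small heat shock gene known as a target of the insulin-regulated factor DAF-16.

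The targeted gene was examined first. The normalized value of stt-3 was 421, 398 and 434 in the control libraries on E. coli against 461, 488 and 467 under the stt-3 RNAi label. On PA14 it was 367, 398 and 434 against 469, 513 and 551. The label was thus not matched by a lower stt-3 value in either setting, and on PA14 it was higher by 0.35 on the log2 scale (limma, adjusted p = 0.0193). The gene ostd-1, which encodes another subunit of the same enzyme, was at 624 to 823 in the control libraries but at 98 to 138 under the label. Libraries with the stt-3 RNAi label are therefore called labelled libraries throughout.

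The values are the authors' normalized scores, rounded to whole numbers, and are not read counts. The depth of each library is unknown, so no counting error can be given. The values of a library summed to between 5530614 and 8627187, with nearly the same upper quartile in all. The sums on PA14 were 6345059 to 7134619 in control RNAi against 5530614 to 5962950 in the labelled libraries. The libraries on PA14 lay apart from those on E. coli on the first principal component, which held 73.4% of the variance. The labelled E. coli library 3 lay nearest to the PA14 libraries among those on E. coli. Marker genes of other tissues moved with PA14. The summed value of 12 sperm markers was 27977 to 69767 in control RNAi on E. coli and 1971 to 4726 on PA14, and that of 5 body wall muscle markers was 6401 to 11213 and 1879 to 3142. That of 5 epidermis markers was 20713 to 30099 and 2556 to 3922, where 3 passed as lower and 1 as higher. For 5 germline markers it was 3802 to 4474 and 2864 to 3020, where 3 passed as lower and none as higher. The neuron markers went the other way, at 1223 to 1271 and 1459 to 1669, where 1 of 4 tested passed as higher. No marker was at 0 in any library. The labelled libraries gave 31791 to 54906 against 3035 to 4575 for sperm and 6136 to 10413 against 2220 to 2600 for muscle. For germline they gave 3458 to 3931 against 2477 to 3079, where 3 again passed as lower. The part of these shifts in the results below was not tested. In whole worms, fewer cells of a type and less RNA per cell cannot be told apart.

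The hsp-16 genes lie on chromosome V as divergent pairs. In the WBcel235 annotation, hsp-16.2 (WBGene00002016) spans bases 1804334 to 1804957 on the minus strand. Its neighbour hsp-16.41 (WBGene00002018) spans 1805178 to 1805875 on the plus strand, and 220 bases lie between them. A second cluster holds hsp-16.1 (WBGene00002015, 9087293 to 9087782, minus strand) and hsp-16.48 (WBGene00002019, 9088131 to 9088617, plus strand), 348 bases apart. The copies of this pair follow next to it as hsp-16.49 (WBGene00002020, 9089280 to 9089766, minus strand) and hsp-16.11 (WBGene00002017, 9090077 to 9090604, plus strand), 310 bases apart. The copies share nearly all of their sequence, and their values moved as one. The ratio of hsp-16.11 to hsp-16.1 lay between 0.834 and 0.864 over the 12 libraries, and that of hsp-16.49 to hsp-16.48 between 1.08 and 1.12. Reads of the copies cannot be told apart with certainty, so the 6 gene IDs stand for 4 measurements at most. By contrast, the ratio of hsp-16.41 to its neighbour hsp-16.2 ranged from 0.956 to 4.04.

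In control RNAi on E. coli, the listed genes fell into a high, a middle and a low range of level per kilobase of exon. The Hsp70 gene hsp-1 (chromosome IV, 17278959 to 17281330) stood at 7495 ± 268 per kilobase (SD, n = 3), and the Hsp90 gene daf-21 (chromosome V, 14684918 to 14688545) at 4488 ± 118. The gene hsp-16.1 followed at 2997 ± 1271 and hsp-16.48 at 2939 ± 996, which differed by less than their spread, and their copies stood at 2328 and 3239. The other pair was lower, with hsp-16.41 at 542 ± 263 and hsp-16.2 at 475 ± 237, again within their spread. At the low end were hsp-70 (chromosome I, 9320325 to 9322519) at 51.9 ± 22.5, hsf-1 (chromosome I, 11953507 to 11963085) at 35.4 ± 6.31 and hsp-12.6 (chromosome IV, 9446229 to 9447228) at 29.5 ± 6.15. These 3 did not differ beyond their spread.

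The hsp-16 genes reached their highest values in the labelled libraries on PA14. The value of hsp-16.1 was 775, 1276 and 1887 in control RNAi on E. coli, 448, 1374 and 1885 in control RNAi on PA14, and 1490, 920 and 1292 in the labelled libraries on E. coli. In the labelled libraries on PA14 it was 3013, 4074 and 3040. Each of these last 3 libraries was above each of the other 9, as was the case for 8.65% of all genes tested, and the other groups overlapped. For hsp-16.48, the values on E. coli were 808, 1341 and 1660 in control RNAi against 1447, 948 and 1070 in the labelled libraries. On PA14 they were 413, 1056 and 1576 in control RNAi against 2917, 3578 and 2493 in the labelled libraries. Again the labelled PA14 libraries lay above the other 9, which overlapped. The copies hsp-16.11 and hsp-16.49 showed the same picture, at 2534 to 3467 and 2792 to 3906 in the labelled libraries on PA14 against 378 to 1586 and 452 to 1836 elsewhere.

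The divergent pair in the other cluster did likewise at a lower level. The value of hsp-16.2 was 120, 321 and 382 in control RNAi on E. coli against 140, 310 and 149 on PA14. The labelled libraries gave 228, 154 and 187 on E. coli against 684, 648 and 728 on PA14. The last 3 values lay close together and above all others. The gene hsp-16.41 stood at 202, 307 and 531 in control RNAi on E. coli, and at 140, 433 and 602 on PA14. Under the label it stood at 348, 214 and 307 on E. coli, and at 733, 1003 and 860 on PA14. The labelled PA14 libraries did not overlap with any other group here either, and the remaining 3 groups overlapped.

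**Figure D1:**
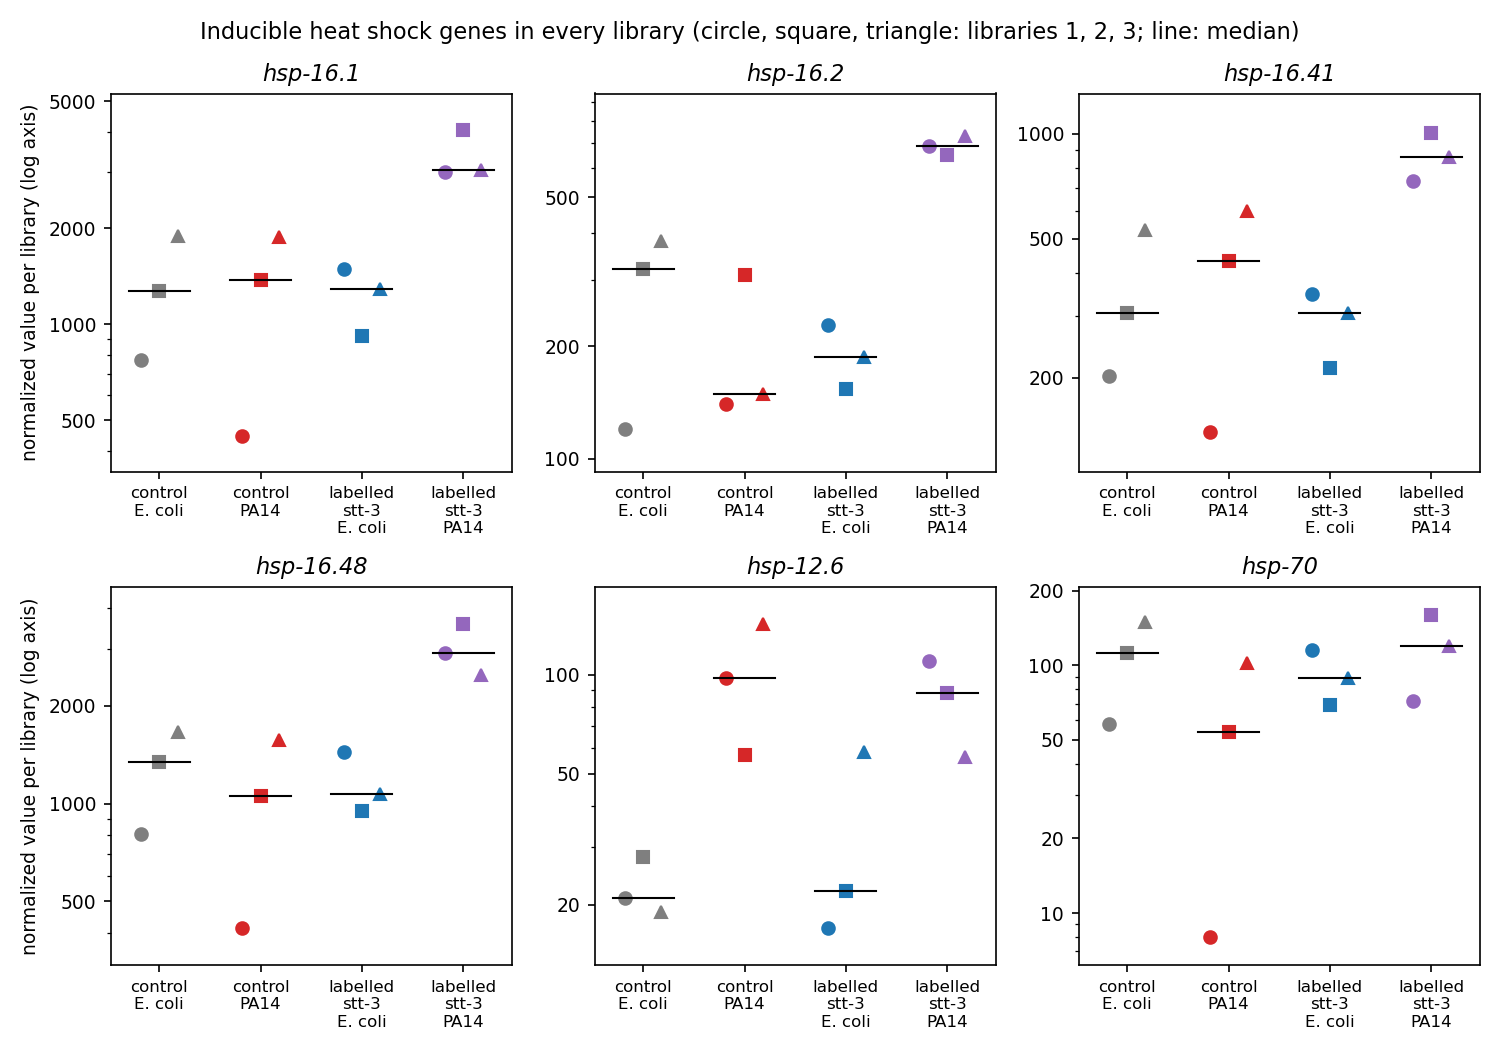
Normalized value (log axis) of hsp-16.1, hsp-16.2, hsp-16.41, hsp-16.48, hsp-12.6 and hsp-70 in each of the 12 libraries by condition, with the median of each condition as a line. The hsp-16 genes are highest in the 3 labelled libraries on PA14 (3013 to 4074 for hsp-16.1), hsp-12.6 is higher on PA14 in both RNAi groups, and hsp-70 has its lowest value, 8, in a control library on PA14.

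On PA14 against E. coli in control RNAi, none of the 6 hsp-16 gene IDs passed the test, which was a limma fit over all 12908 genes with Benjamini-Hochberg adjustment and a threshold of 0.05. Their log2 differences ran from -0.46 ± 0.43 (SE) for hsp-16.48 to 0.05 ± 0.49 for hsp-16.41, and the interval of the latter (-1.03 to 1.13) still holds a 2-fold change in either direction. Without the control E. coli library 1, hsp-16.2 was lower on PA14 by 0.91 (adjusted p = 0.0329). Under the stt-3 RNAi label, all 6 rose on PA14. The rise was 1.87 ± 0.41 on the log2 scale for hsp-16.2 (adjusted p = 0.00366), which is 3.65-fold. It was 1.59 ± 0.49 for hsp-16.41 (0.0216), 1.46 ± 0.47 for hsp-16.1 (0.0282) and 1.38 ± 0.43 for hsp-16.48 (0.0225). In that comparison, 23.1% of all genes tested passed as higher and 20.6% as lower. For 29.2% of all genes, every PA14 library was above every E. coli library, as it was for the 6 hsp-16 IDs.

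On E. coli alone, the labelled libraries did not differ from control RNAi in any of the 11 gene IDs by this test, none of which reached an unadjusted p under 0.05 either. Over all genes, 3.10% passed as higher and 3.32% as lower. On PA14 alone, hsp-16.2 was higher in the labelled libraries by 1.87 ± 0.41 (adjusted p = 0.0136), hsp-16.48 by 1.75 ± 0.43 (0.0242) and hsp-16.1 by 1.67 ± 0.47 (0.0488). With the copies, 5 gene IDs passed as higher and none as lower, beside 4.72% and 5.76% of all genes. The gene hsp-16.41 gave 1.37 ± 0.49 and did not pass (adjusted p = 0.116), although its groups did not overlap, which held in the higher direction for 16.7% of all genes. The ER chaperone genes hsp-3 and hsp-4 moved with the RNAi label. On PA14 against E. coli, hsp-4 also rose in the labelled libraries (limma, adjusted p = 0.0364). The summed value of 6 intestinal markers was 16574 to 20945 on E. coli and 36264 to 57739 on PA14 in control RNAi. In the labelled libraries, where the hsp-16 genes rose on PA14, the sum was 10277 to 12435 and 9006 to 12346, which overlapped. The 6 markers did not all move alike. On PA14, 3 passed as higher and none as lower in control RNAi, and none and 1 in the labelled libraries. For the label, 1 passed as higher and 1 as lower on E. coli, and none and 2 on PA14. The part of these ER genes and markers in the difference of the hsp-16 genes was not tested.

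The difference between the PA14 changes of the RNAi groups, fitted as an interaction, passed for none of the 11 gene IDs, beside 0.418% of all genes as higher and 1.24% as lower. It was 2.26 ± 0.57 on the log2 scale for hsp-16.2 (adjusted p = 0.0916), 1.84 ± 0.60 for hsp-16.48 (adjusted p = 0.190), 1.69 ± 0.67 for hsp-16.1 (0.304) and 1.54 ± 0.69 for hsp-16.41 (0.383). All 6 hsp-16 IDs had an unadjusted p under 0.05 in limma. A different response of the hsp-16 genes to PA14 in the RNAi groups is therefore not shown after adjustment. Without the control E. coli library 1 the adjusted p of hsp-16.2 was 0.0168, and without the control PA14 library 2 it was 0.0382.

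Many of these calls lay near the threshold and were lost when single libraries were left out, while the differences kept their direction. Over the alternatives, hsp-16.1 stayed at 1.27 to 1.74 for PA14 in the labelled libraries and at 1.05 to 2.09 for the label on PA14. Leaving out an E. coli library left the latter difference at 1.67 and changed only its estimated error. The count of listed gene IDs that rose on PA14 in the labelled libraries, 7 with hsp-12.6, was 1 without the labelled E. coli library 2, and 2, 1 and 4 without the labelled PA14 libraries 1, 2 and 3. In each of these, hsp-16.2 still passed. The count of 5 for the label on PA14 was 1 without any of the labelled PA14 libraries, 2 without the control PA14 library 1, and 3 without the control PA14 library 2, the control E. coli library 2 or 3, or any labelled E. coli library. The gene hsp-16.2 lost its call there without the control PA14 library 1 (adjusted p = 0.0573) or 3 (0.0594). Without the control PA14 library 1 the difference of hsp-16.1 was 1.05 on the log2 scale, or 2.08-fold (adjusted p = 0.108). On PA14, hsp-16.1 stopped passing in 17 of 25 alternatives, hsp-16.48 in 6 of 25 and hsp-16.2 in 5 of 24. When the 4 libraries of number 1 were left out together, an alternative chosen after seeing the data, 6 gene IDs still rose on PA14 in the labelled libraries, but none passed for the label on PA14.

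**Figure D2:**
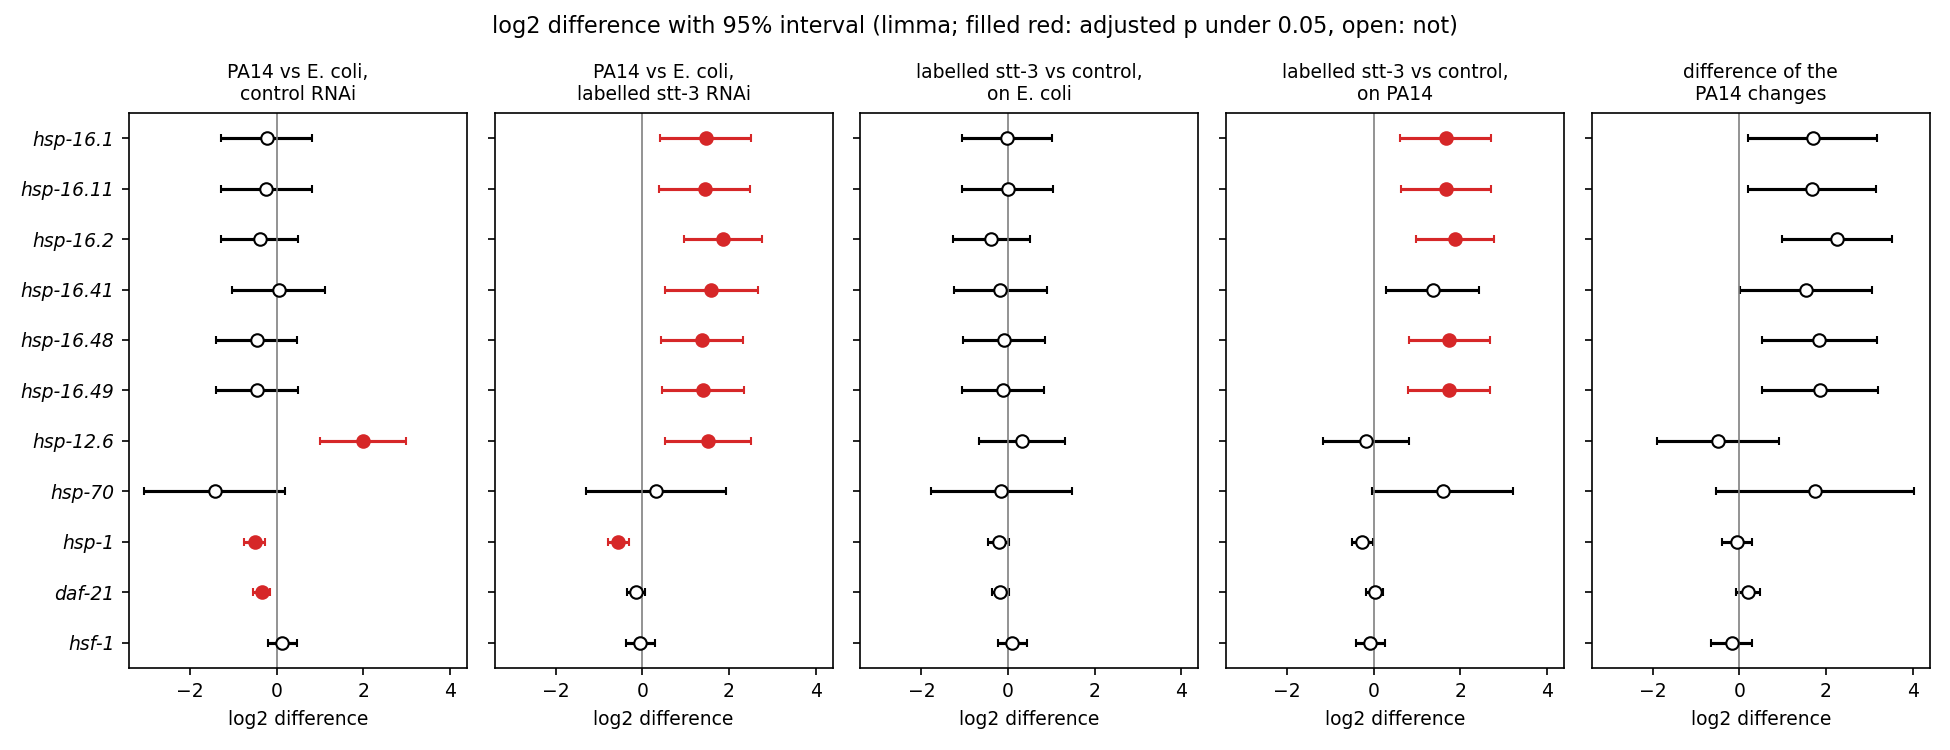
Log2 difference with its 95% interval for the 11 gene IDs (rows) in the 4 comparisons and their interaction (panels), from limma; filled red points have an adjusted p under 0.05. The hsp-16 genes are at 1.38 to 1.87 for PA14 in the labelled libraries and between -0.46 and 0.05 in control RNAi, hsp-12.6 and hsp-1 move the same way in both RNAi groups, and no interaction passed.

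The small heat shock gene hsp-12.6 (WBGene00002013) rose on PA14 in both RNAi groups. Its value was 21, 28 and 19 in control RNAi on E. coli against 98, 57 and 142 on PA14, with no overlap, which held in the higher direction for 30.5% of all genes. Under the label it was 17, 22 and 58 on E. coli against 110, 88 and 56 on PA14, where the third library of each group overlapped. The rise was 2.0 ± 0.45 on the log2 scale in control RNAi (adjusted p = 0.00353), or 4.01-fold, and 1.51 ± 0.45 in the labelled libraries (0.0193). In control RNAi, hsp-12.6 was the single member that passed as higher, beside 25.8% of all genes. The call in the labelled libraries was lost without the labelled E. coli library 1 (adjusted p = 0.0773) or 2 (0.0724), or the labelled PA14 library 1 (0.0720) or 2 (0.0542). The label itself made no difference that passed, at 0.31 ± 0.45 on E. coli and -0.18 ± 0.45 on PA14.

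The heat-inducible Hsp70 gene hsp-70 (WBGene00002026) did not pass in any comparison. It stood at 58, 112 and 150 in control RNAi on E. coli, and at 8, 54 and 102 on PA14. The labelled libraries gave 115, 69 and 89 on E. coli, and on PA14 they gave 72, 159 and, in the third library, a value between these. All 4 groups overlapped, and the low value of 8 came from the same control PA14 library that was lowest for hsp-16.1. On PA14 against E. coli the log2 difference was -1.43 ± 0.73 in control RNAi (adjusted p = 0.125) and 0.31 ± 0.73 in the labelled libraries (0.758). Without the control PA14 library 3, hsp-70 was lower in control RNAi by 2.17 (adjusted p = 0.0269). Between the RNAi groups on PA14 the difference was 1.59 ± 0.73 (adjusted p = 0.238), with an interval from -0.03 to 3.22, and it was 0.57 without the control PA14 library 1 (0.588). Of the other heat-inducible Hsp70 genes, F44E5.4 ranged from 94 to 915 and F44E5.5 from 89 to 843. They too are near-identical copies, with a ratio of 0.905 to 0.947. Neither passed in any comparison, and in the labelled libraries on PA14 F44E5.4 was at 167, 587 and 409, within its range in control RNAi on PA14 (94, 524 and 818). The gene uggt-2 lies over hsp-70 on the other strand and had values of 0 to 5 in all libraries.

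Of the constitutive chaperone genes, hsp-1 fell on PA14 in both RNAi groups and daf-21 in control RNAi, on the deposited scale. The value of hsp-1 (WBGene00002005) was 16124, 15019 and 15467 in control RNAi on E. coli against 11150, 10950 and 10582 on PA14. Under the label it was 14170, 15114 and 11184 on E. coli against 8595, 8931 and 9801 on PA14. All PA14 libraries were below all E. coli libraries, and the labelled E. coli library 3 was nearest to them. The gene fell by 0.51 on the log2 scale in control RNAi (SE 0.11, adjusted p = 0.00287) and by 0.56 in the labelled libraries (SE 0.11, adjusted p = 0.00226), which is 1.43-fold and 1.47-fold lower. On PA14, the labelled libraries were below the control libraries without overlap, as 14.0% of all genes were, at -0.26 ± 0.11, but did not pass (adjusted p = 0.198). Without the labelled E. coli library 3 that difference had an adjusted p of 0.0459.

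For daf-21 (WBGene00000915, listed in the annotation as hsp-90), the values in control RNAi were 10829, 10284 and 10651 on E. coli against 8440, 8143 and 8371 on PA14. The groups did not overlap, which held in the lower direction for 28.9% of all genes, and daf-21 fell by 0.35 (SE 0.09, adjusted p = 0.00810). Under the label it was at 9690, 10413 and 8161 on E. coli, and at 8342, 8319 and 8681 on PA14. Here the third E. coli library was below all 3 PA14 libraries, and the difference of -0.15 ± 0.09 did not pass (adjusted p = 0.207). Without that library daf-21 fell by 0.25 (adjusted p = 0.0142). The gene C47E8.4 on the other strand shares 4 exonic bases with daf-21 and stood at 308 to 424. In control RNAi, hsp-1 and daf-21 were the 2 members that passed as lower, beside 25.8% of all genes. In the labelled libraries hsp-1 was the only one, and its groups there stood apart as 23% of all genes did in the lower direction. Over the 11 gene IDs the median log2 difference was -0.35 in control RNAi and 1.40 under the label, beside 0.04 and 0.07 over all genes. Here the copies count as separate IDs. The first median is the value of daf-21 and the second that of hsp-16.49, so they do not describe a change of every member.

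These falls depended on the scaling. With quantile normalization, which forces the same distribution on every library, hsp-1 was at -0.22 in control RNAi (adjusted p = 0.0750) and at -0.10 in the labelled libraries (0.399). With the same scaling daf-21 was at -0.13 in control RNAi (0.252) and at 0.17 in the labelled ones (0.155), and it was higher by 0.47 in the labelled libraries on PA14 than in the control ones (0.00711), where the deposited scale gave 0.02 ± 0.09. As a share of the summed values of a library, hsp-1 held 0.174% to 0.204% in control RNAi on E. coli and 0.156% to 0.173% on PA14. For daf-21 the shares overlapped in control RNAi, at 0.119% to 0.139% and 0.118% to 0.130%. In the labelled libraries the share of daf-21 was 0.133% to 0.135% on E. coli and 0.140% to 0.150% on PA14, without overlap and in the direction opposite to its value. The share of hsp-1 there was 0.184% to 0.196% on E. coli and 0.144% to 0.169% on PA14. The sums of the labelled libraries were 6069138 to 7717979 on E. coli and 5530614 to 5962950 on PA14, so a gene with a steady value gains share. For how many of all genes the shares stood apart was not counted. With median-of-ratios rescaling, both genes still passed in control RNAi.

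**Figure D3:**
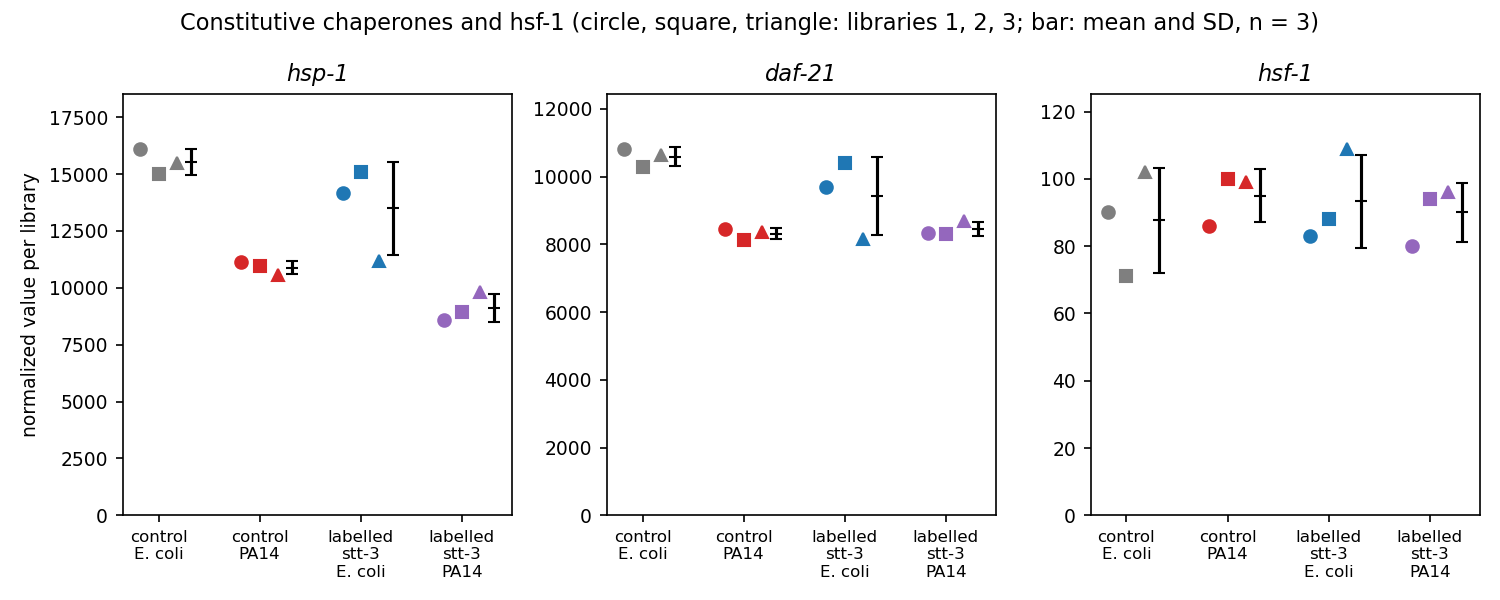
Normalized value (linear axis from 0) of hsp-1, daf-21 and hsf-1 in each of the 12 libraries by condition, with the mean and SD (n = 3) beside the points. The value of hsp-1 is 8595 to 11150 in the 6 PA14 libraries and 11184 to 16124 in the 6 E. coli libraries, and hsf-1 stays between 71 and 109 in every library.

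The gene hsf-1 (WBGene00002004) did not pass in any comparison. Its value was 90, 71 and 102 in control RNAi on E. coli against 86, 100 and 99 on PA14. Under the label it was 83, 88 and 109 on E. coli against 80, 94 and 96 on PA14, so that all groups overlapped. The log2 differences lay between -0.08 and 0.13 with an SE of 0.15 in all 4 comparisons. The interval for PA14 in control RNAi ran from -0.21 to 0.46, so that a 2-fold change lay outside it. Of the proteins that bind or modulate HSF-1, 4 of 5 genes were tested: hsb-1 and ddl-1, which are known to hold HSF-1 in an inhibitory complex, ddl-2, and the deacetylase gene sir-2.1. None passed in any comparison. The median of the 4 was 0.06 for PA14 in control RNAi and 0.09 in the labelled libraries, beside 0.04 and 0.07 over all genes.

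Of 10 further small heat shock genes, 8 were tested. The largest rise was that of hsp-17, at 126, 240 and 152 in control RNAi on E. coli against 947, 623 and 1161 on PA14, a difference of 2.40 ± 0.44 (adjusted p = 0.00104). Under the label hsp-17 was at 784, 339 and 211 on E. coli against 972, 636 and 1153 on PA14, which overlapped (1.22 ± 0.44, adjusted p = 0.0446), and this call was lost in 15 of 24 alternatives. The gene sip-1, whose protein is made in oocytes and embryos, rose from 19345 to 25580 up to 40612 to 44387 in control RNAi (0.93 ± 0.13, adjusted p = 0.000171) and by 0.41 in the labelled libraries (0.0240). The summed value of 8 oocyte markers was also higher on PA14, at 24839 to 25772 against 17887 to 23107 in control RNAi. Of the 8, only 2 passed as higher there and 1 in the labelled libraries, and none as lower. Their part was not tested. The gene hsp-43 was lower on PA14 in control RNAi (-0.56 ± 0.17, adjusted p = 0.0208). In all, 2 of 8 passed as higher and 1 as lower in control RNAi, and 2 and none in the labelled libraries. The shares of higher genes were near those over all genes, 25.8% and 23.1%. The medians of the 8 were 0.11 and -0.08.

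Among the partners of Hsp70, the shares that passed were no larger than over all genes. Of 12 genes listed for the cytosolic Hsp70 system, 2 passed as higher and 3 as lower on PA14 in control RNAi, with a median of -0.23. In the labelled libraries 2 and 2 passed, with a median of -0.16. Whether each listed gene, such as the Hsp70-like stc-1, acts in the cytosol was not checked. Over all genes, 25.8% passed in each direction in control RNAi, while 23.1% passed as higher and 20.6% as lower under the label. The nucleotide exchange factor gene hsp-110 was at 1030, 985 and 1034 on E. coli against 497, 605 and 678 on PA14 in control RNAi, and it fell by 0.79 there (adjusted p = 0.000467) and by 0.67 in the labelled libraries (0.00180). The Hsp70-like gene F11F1.1 fell in control RNAi, at 20, 27 and 18 against 9, 8 and 10 (-1.17 ± 0.24, adjusted p = 0.00188). Under the label it was at -0.25 ± 0.24 (adjusted p = 0.428). The Hsp70-interacting protein gene hip-1 was higher by 0.31 in control RNAi (0.00511), and the ubiquitin ligase gene chn-1 by 0.29 (0.0153).

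Most genes of the cytosolic chaperonin fell on PA14 in control RNAi on the deposited scale. Of 14 genes of the cytosolic chaperonin CCT and of prefoldin, which fold actin and tubulin, 10 fell in control RNAi and 6 in the labelled libraries, beside 25.8% and 20.6% of all genes, and none rose. The medians were -0.35 and -0.22. The largest fall was that of cct-1, from 1628 to 1846 down to 1171 to 1221 in control RNAi (-0.51 ± 0.08, adjusted p = 0.000516), and the smallest difference that of pfd-4 (-0.09 ± 0.12, 0.553). Of 8 Hsp90 co-chaperone genes, 3 fell in control RNAi (sgt-1, daf-41 and ahsa-1) and 2 in the labelled libraries, with medians of -0.21 and -0.07, and 2 of 8 is near the share over all genes. With quantile normalization 3 chaperonin and prefoldin genes fell in control RNAi, near the share over all genes (2792 of 12908). In the labelled libraries 3 fell and 3 rose, beside 2362 and 3574 of 12908 genes. Among the Hsp90 co-chaperones none fell in either and 1 rose in the labelled ones. With median-of-ratios rescaling, 10 of the 14 chaperonin and prefoldin genes fell in control RNAi and 8 in the labelled libraries. Over all genes, 3400 and 2982 of 12769 fell with that rescaling. On the deposited scale, no gene of these lists passed for the label on E. coli. On PA14, hsp-43 (0.68 ± 0.17, adjusted p = 0.0306) and stc-1, an Hsp70-like gene (0.46 ± 0.12, 0.0307), passed as higher, both by less than 2-fold, and neither list held a gene that passed there with median-of-ratios rescaling.

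Of the relatives in other compartments, the mitochondrial ones fell on PA14, and the ER ones rose with the label. On PA14, 25.8% of all genes passed as lower in control RNAi and 20.6% in the labelled libraries. The mitochondrial Hsp70 gene hsp-6 fell on PA14 by 0.80 in control RNAi (adjusted p = 0.000151) and by 0.62 in the labelled libraries (0.00102). These calls, and those of hsp-60 on PA14, were lost only in the 2-fold test. Those of hsp-1 were also lost with quantile normalization and without the libraries of number 1. The mitochondrial chaperonin gene hsp-60 fell by 0.84 (0.000583) and 0.74 (0.00165), and it fell by 0.58 with the label on E. coli (0.0361), which was lost in 16 of 24 alternatives. The ER Hsp70 genes hsp-3 and hsp-4 were higher under the label. On E. coli, hsp-4 was at 1231, 1147 and 1357 in control RNAi against 7193, 6528 and 3507 in the labelled libraries, 2.14 ± 0.24 on the log2 scale (adjusted p = 0.000578). On PA14 it was 2.63 ± 0.24 (5.05e-05). The corresponding differences of the cytosolic hsp-1 were -0.21 ± 0.11 (adjusted p = 0.319) and -0.26 ± 0.11 (0.198). Without the 4 libraries of number 1, the calls of hsp-4 (limma, adjusted p = 0.0735) and hsp-3 (0.158) for the label on E. coli were lost. On PA14 against E. coli, hsp-4 also rose in the labelled libraries, by 0.69 (adjusted p = 0.0364), a call lost in 10 of 24 alternatives. In control RNAi it did not pass there (0.20, adjusted p = 0.513), and hsp-3 passed in neither RNAi group.

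**Figure D4:**
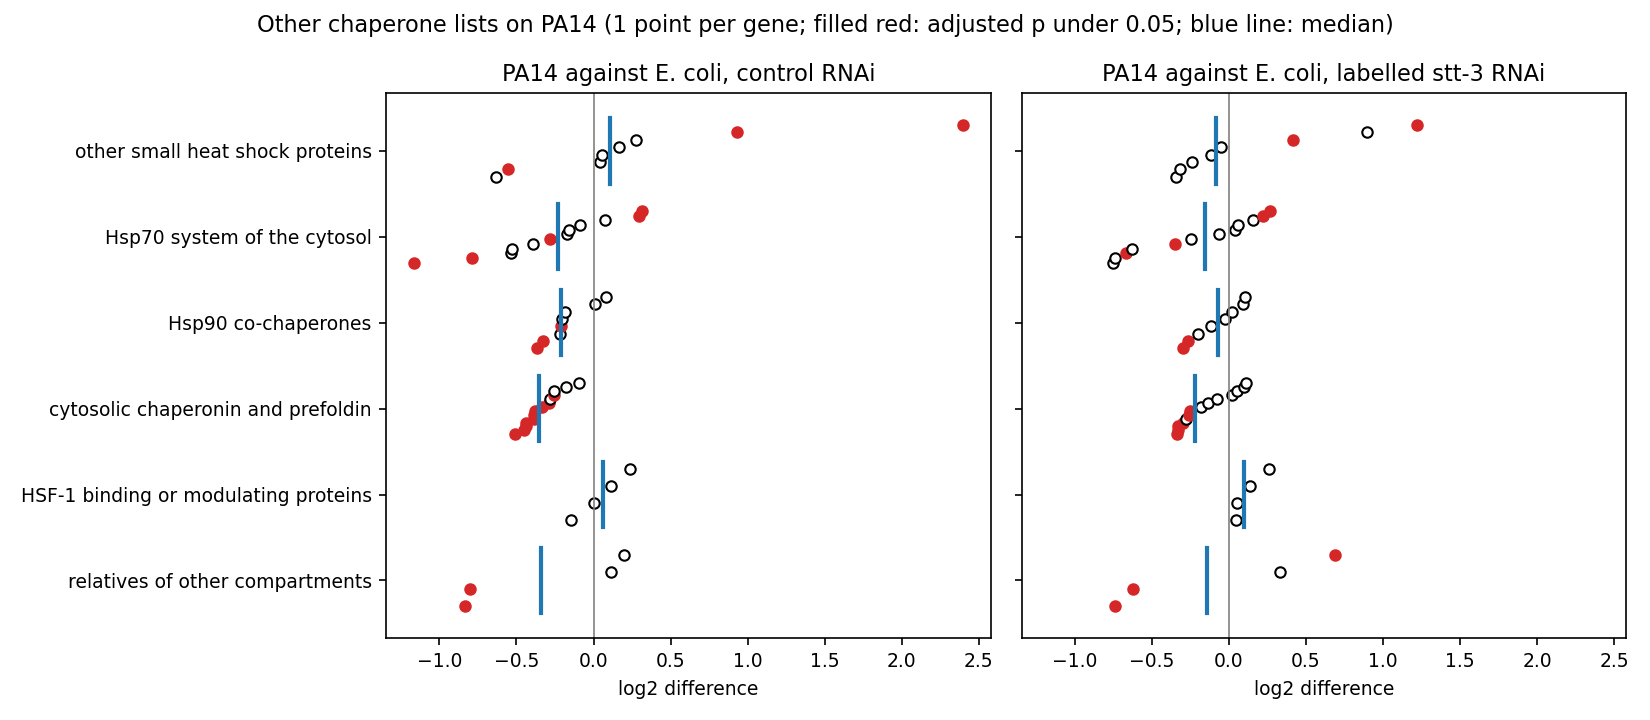
Log2 difference of PA14 against E. coli in control RNAi (left) and under the stt-3 RNAi label (right) for the genes of 6 chaperone lists, 1 point per gene, filled red at an adjusted p under 0.05, with the median of each list in blue. The medians of the chaperonin and prefoldin list are -0.35 and -0.22, and hsp-17 is the highest point at 2.40 and 1.22.

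Genes with the most similar pattern over the 12 libraries were looked up as a description. For hsp-1 these were fkb-2 (Pearson r = 0.986), K08D12.3 (0.985), ugt-47 (0.985), E01G4.6 (0.983) and folt-2 (0.980). The libraries on PA14 lay apart from those on E. coli, and any gene that differs strongly between them can reach such values. The sizes of the changes were unlike, since folt-2 was at -4.54 on the log2 scale for PA14 in control RNAi, fkb-2 at -0.50 and hsp-1 at -0.51. For the mean log2 value of hsp-16.1, hsp-16.2, hsp-16.41 and hsp-16.48, the nearest was M60.6 (r = 0.949), at 45 to 50 in the labelled libraries on PA14 and at 34 to 43 elsewhere. Next came WBGene00268191 (0.895), B0303.14 (0.843), the histone gene his-9 (0.830) and dmd-9 (0.826). In the labelled libraries on PA14, WBGene00268191 was at 13 to 15 and B0303.14 at 10 to 12. Elsewhere they were at 7 to 12 and 5 to 10, so both lie near the filter value of 10. All libraries of that group met this value for B0303.14. Any gene that is high mainly in that group can reach such r values.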

How the data were processed

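Libraries were made from total RNA of whole worms with the TruSeq RNA kit v2. Reads were mapped by the authors with HISAT2 2.0.5 on WBcel235. StringTie 1.3.3b and Ballgown gave the gene values, which the authors then scaled to the upper quartile and adjusted for batches with RUVSeq. The deposited values are therefore a normalized score, rounded to whole numbers, although their column is headed as a count. The authors' own tests used DESeq2. The use of strand is not stated.

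All 12 libraries were fitted together on log2(value + 1) in R 4.3.3 with limma 3.58.1. Each condition had 1 mean in the model, the prior variance followed the mean, and Benjamini-Hochberg adjustment ran over the 12908 genes that reached 10 in 3 or more libraries. A fold change is thus on the log2(value + 1) scale and understates the change of low genes. A gene passed, or had a call, at an adjusted p under 0.05. The script was tested on simulated data. No sample was dropped or imputed. Nothing in the labels says that libraries of a group came from separate cultures, so p-values measure the spread between these libraries, which may be technical. It is the spread left after the RUVSeq adjustment, which the fit did not account for, so it may be too small.

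Gene IDs were matched to symbols in the WBcel235 annotation (16626 of 17430). The second IDs of hsp-16.1 and hsp-16.48 are called hsp-16.11 and hsp-16.49 as in RefSeq, and daf-21 was matched by its locus C47E8.5. Of the HSF-1 list, hsb-2 was not matched, and the small heat shock genes F08H9.3 and F08H9.4 did not pass the filter. Members and lists were chosen with earlier results of these data known. Named were all members, genes of the other lists that passed with more than a 2-fold change or had the largest or smallest changes, and the 5 genes most correlated with hsp-1 and with the mean of the 4 listed hsp-16 genes. The genes F44E5.4, F44E5.5, hip-1, chn-1, hsp-110, sip-1, hsp-43, stc-1, sgt-1, daf-41 and ahsa-1 were named after their values were seen.

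Equal replicate numbers were checked for pairing. Deviations from the condition means correlated at 0.53, 0.26 and 0.39 between control and labelled libraries of the same number on PA14, all over 0.1. Libraries of different numbers there gave -0.53 to 0.21. Between E. coli and PA14 in control RNAi, the same numbers gave 0.06, 0.18 and 0.12, and different numbers -0.21 to 0.05. In the labelled libraries these were 0.24, -0.07 and 0.19, and -0.28 to 0.17. Between control and labelled libraries on E. coli they were 0.02, 0.37 and 0.46, and -0.41 to 0.26. The main fit did not include the replicate number. Alternatives were other pseudocounts, filters and scalings, a replicate block, no trend, a test against 2-fold, fits of the compared groups only, and each library left out.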

Additional observations from a re-analysis of the deposited data

How the results depend on the processing

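Over 25 alternatives, 1319 values of the listed genes were recomputed: 1221 kept their side of the threshold, 90 lost their call and 8 gained one. The sign changed in 57, none of which passed before or after, such as daf-21 with quantile normalization (0.17 for PA14 in the labelled libraries) and hsp-1 (0.16 for the label on PA14). PA14 in control RNAi gave 1 listed gene higher and 2 lower. The lower count was 0 with quantile normalization, and higher and lower were 0 and 0 in a test against a 2-fold change. PA14 in the labelled libraries gave 7 higher and 1 lower. The counts were 0 and 0 in the 2-fold test, and the lower count was 0 with quantile normalization. The label on PA14 gave 5 higher. That count was 3 without the filter on low values, 3 with median-of-ratios rescaling, 3 without the mean-variance trend, 0 in the 2-fold test and 1 when only the groups compared were fitted. Leaving out 1 library at a time gave 1 to 7 higher and 1 to 2 lower for PA14 in the labelled libraries, 1 to 5 higher and 0 to 1 lower for the label on PA14, and 0 to 1 higher for the interaction. In alternatives chosen after seeing the data, the 4 libraries of number 1 were left out. This gave 0 lower in either RNAi group and 0 higher for the label on PA14. Leaving out the labelled E. coli library 3 and the control PA14 library 1 gave 2 lower for PA14 in the labelled libraries and 2 higher for the label on PA14. Summing the copies of hsp-16.1 and of hsp-16.48 changed no call. The fit with a replicate block changed no call of a listed gene, and its adjusted p for hsp-16.2 was 0.00429 for PA14 in the labelled libraries, 0.0162 for the label on PA14 and 0.0858 for the interaction. With the block the call of hsp-17 in the labelled libraries was lost (adjusted p = 0.0550).

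Over all genes, 6666 passed for PA14 in control RNAi and 5639 in the labelled libraries, and 3758 and 3160 with a mean value of at least 50, where fewer genes were tested. In the 2-fold test these were 1971 and 1499. For the label on E. coli 828 passed, and 37 in the 2-fold test and 159 when only the groups compared were fitted. For the label on PA14 1353 passed, and 165 in the 2-fold test. For the interaction 214 passed, and 4 in the 2-fold test. Without the libraries of number 1, 3017 passed for PA14 in the labelled libraries, 54 and 331 for the label on E. coli and on PA14, and 1 for the interaction, with fewer libraries fitted. The depth is unknown, so low values such as those of hsp-12.6 carry a counting error that cannot be given.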

Other observations

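The inducible members varied more between libraries of the same condition than most genes did. The pooled SD within conditions was 1.03 on the log2 scale for hsp-70 and 0.57 to 0.69 for the 6 hsp-16 gene IDs, beside a median of 0.15 over tested genes whose mean value was 50 or more. It was 0.13 for hsp-1, 0.09 for daf-21 and 0.19 for hsf-1. In control RNAi on PA14 the highest library exceeded the lowest 4.21-fold for hsp-16.1, 12.8-fold for hsp-70 and 1.05-fold for hsp-1. In both control groups, library 1 was lowest for hsp-16.1, hsp-16.41, hsp-16.48, hsp-70 and F44E5.4, and library 3 was highest. In the labelled libraries on E. coli, library 2 was lowest for all 5 of them. For hsp-16.2 the highest control library on PA14 was library 2.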
